A study of Mus musculus with 7 samples.

Results

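The 10 genes described here encode chromatin, DNA methylation and RNA-binding regulators known from stem cell self-renewal and from clonal haematopoiesis, the expansion in blood of clones that carry a mutation in a single stem cell. They were taken by name from a table of 28786 Ensembl genes. They are the DNA methyltransferases Dnmt3a and Dnmt3b, the methylcytosine dioxygenase Tet2, the Polycomb proteins Ezh2 and Bmi1, the deubiquitinase cofactor Asxl1, the histone methyltransferase Kmt2a and its partner in leukaemic fusions Mllt3, the histone demethylase Kdm6b and the RNA-binding protein Msi2. All 10 had counts in every library and passed the filter on low counts. The libraries came from cells labelled as haematopoietic stem cells (HSCs), sorted from bone marrow of mice aged 6 to 8 weeks, with 1500 cells per library. The control group is labelled only as control, and the other group as MC38 colon cancer in C57BL/6J mice, MC38 being a mouse colon carcinoma line. The labels name no other allele or agent for either group, and the site and duration of tumour growth, the sort markers and any pooling of animals are not stated in them. The study's question is how a tumour turns HSCs to myeloid output. Values are read counts scaled to library size (CPM) after TMM normalisation, in 2 control and 4 MC38 libraries. The labels do not tie the libraries to separate animals, so each p-value reflects only the spread among these libraries, and that spread may be technical.

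Dnmt3a and Dnmt3b place new methyl groups on cytosine, and Tet2 starts their removal by oxidising methylcytosine. Ezh2 is the catalytic subunit of Polycomb repressive complex 2 (PRC2), which methylates lysine 27 of histone H3, and Bmi1 is a core subunit of Polycomb repressive complex 1 (PRC1), which ubiquitinates histone H2A and keeps the cell cycle inhibitor locus Cdkn2a silent in HSCs. Kmt2a, the MLL1 protein, methylates lysine 4 of histone H3 and opposes Polycomb at Hox genes, while Kdm6b removes methyl groups from lysine 27.

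The libraries held 12131546 and 12306066 counts in control and 13368238 to 17657037 in MC38. The third control column was left out of all values except those marked as fitted with it or with all 7 columns, since it lay between the other controls for 91.5% of 14104 tested genes and for all 10 regulators. The 11 stem cell markers reported here, among them Procr, Hlf and Fgd5, were all detected. Their summed level was 1221 and 1295 CPM in control and 1120 to 1289 CPM in MC38. None of the 11 was called in edgeR (adjusted p under 0.05), and 2 had an unadjusted p under 0.05, in opposite directions. Ly6a was at 107 ± 18.5 CPM in control and 168 ± 8.16 in MC38 (edgeR adjusted p = 0.0522). Gata2 was at 321 ± 33.9 CPM in control and 228 ± 16.6 in MC38 (edgeR adjusted p = 0.0726). Markers of some other cells and states moved with the groups. Those said to rise or fall were called in edgeR, beside 1.04% of all tested genes called higher and 0.569% called lower. An unadjusted p under 0.05 was found for 17.5% of all tested genes. Summed neutrophil markers were at 27860 and 28150 CPM in control and 53650 to 61210 in MC38 (7 of 10 rose, none fell). Dividing cell markers were at 556 and 567 CPM in control and 347 to 449.7 in MC38 (3 of 10 fell, none rose). Of the 10, 8 had a log2 fold change below 0, while Aurkb (0.55) and Kif11 (0.48) were above 0. Immediate early genes were at 26040 and 26090 CPM in control and 21580 to 22620 in MC38 (2 of 12 fell). Macrophage and dendritic cell markers ran from 512 to 667 CPM in control and from 638 to 730.0 in MC38 (2 of 8 rose), B cell markers from 161 to 162 and from 192 to 243, and T and NK cell markers from 419 to 485 and from 407 to 458. The most abundant gene of a list dominates such sums. Without Cd74 the macrophage and dendritic cell sum was 71.7 to 79.5 CPM in control and 139.6 to 156 in MC38, and the median log2 fold change of the list was 1.21, with 5 of 8 at an unadjusted p under 0.05. Without Nkg7 the T and NK cell sum was 31.4 to 32.6 CPM in control and 61.9 to 80.8 in MC38, with a list median of 1.08 and 5 of 9 at an unadjusted p under 0.05, all higher. Erythroid markers ran from 1502 to 1677 CPM in control and from 1088 to 1496 in MC38, and megakaryocyte and platelet markers from 359 to 384 and from 281 to 348. No gene of these lists was at 0 in all libraries. Mitochondrially encoded transcripts took 1.71% and 1.75% of control counts and 2.01% to 3.15% of MC38 counts. Their part in the results below was not tested. In bulk libraries, fewer cells of a type and less RNA per cell cannot be told apart.

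None of the 10 regulators passed the test between MC38 and control (edgeR, adjusted p under 0.05 over 14226 genes). The same test called 229 of all genes, or 1.61%. At an unadjusted p under 0.05 there were 3 of 10, Asxl1 higher and Kmt2a and Msi2 lower in MC38, against 17.5% of all genes (9.26% higher and 8.22% lower). DESeq2 and limma-voom on the same libraries also called none of the 10. DESeq2 called more genes in all than edgeR (counts given below), and its lowest adjusted p among the 10 was 0.0604, for Msi2. The median log2 fold change of the 10 was -0.20, with 7 below 0, beside a median of 0.01 over all genes, of which 49.1% were below 0. Groups did not overlap for 4 of the 10, with Asxl1 above and Ezh2, Kmt2a and Msi2 below the controls, against 29.0% of all genes (14% above and 15% below). The plot of CPM by library shows all values.

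**Figure D1:**
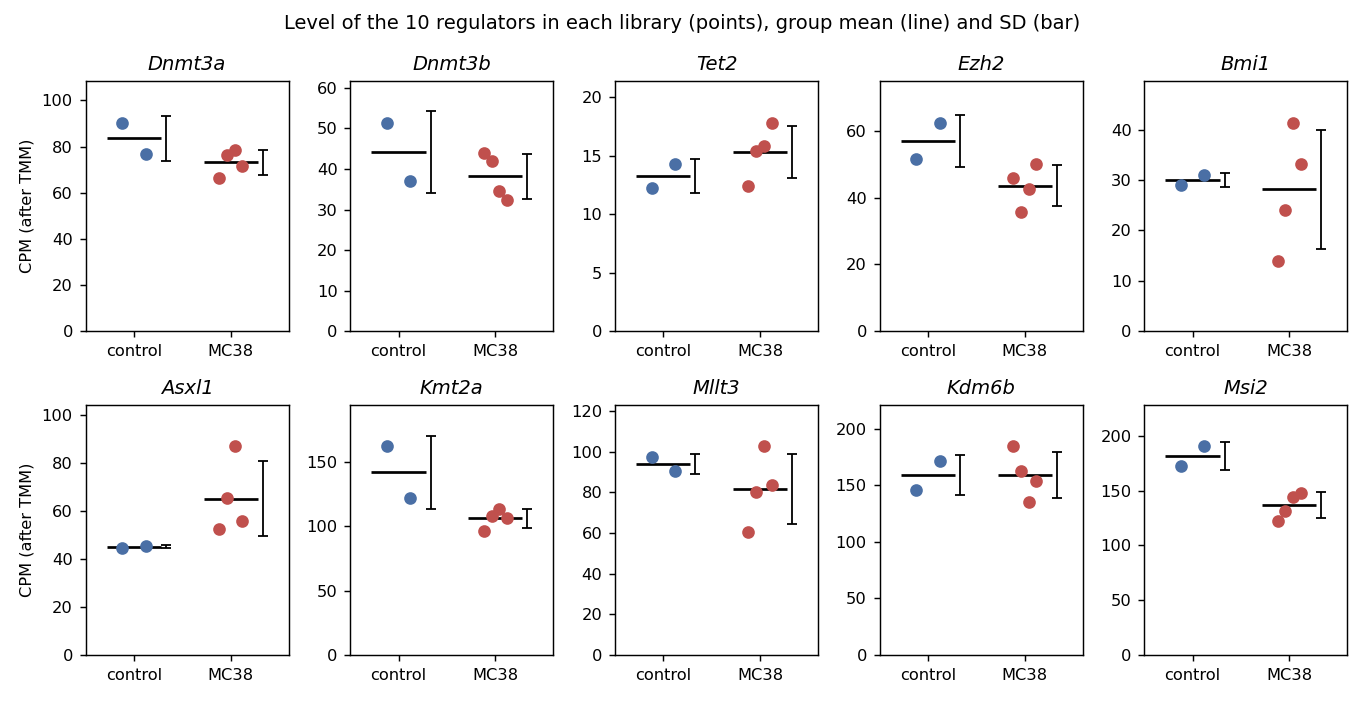
Each panel plots 1 regulator, with the group on the horizontal axis and CPM after TMM scaling on the vertical axis. Points are single libraries, horizontal lines group means and bars the SD (n = 2 control and 4 MC38). Msi2, Kmt2a and Ezh2 points of MC38 lie below both controls, Asxl1 points above them, and Bmi1 spreads from 14.0 to 41.4 CPM within MC38.

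Per kilobase of annotated exon, a scale that allows levels to be set side by side between genes, Kdm6b was the highest at 22.9 CPM per kb (range 19.4 to 26.5 over the 6 libraries) and Msi2 followed at 14.6 (11.8 to 18.3). These ranges do not overlap. Dnmt3b, Asxl1, Bmi1, Ezh2, Mllt3 and Kmt2a had means between 7.08 and 7.88 CPM per kb, and their ranges overlap, so they have no order among themselves. Dnmt3a was at 4.6 (4.00 to 5.43) and Tet2 was the lowest at 0.869 (0.727 to 1.06), below every library value of the others. With the longest transcript of the basic annotation as the length, Msi2 reached 23.5 and was no longer separated from Kdm6b at 23.9. Ezh2 (17.2) and Mllt3 (14.2) then had the next means, with ranges that overlap each other, and Tet2 stayed lowest at 1.6. Dnmt3a was then at 7.91 (6.87 to 9.33) and no longer below Kmt2a at 7.16, with overlapping ranges.

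Among the DNA methylation genes, the level of Dnmt3a (chromosome 12, 3806007 to 3914443, mm10) was 90.3 and 76.7 CPM in control and 66.5, 76.2, 78.3 and 71.5 CPM in MC38 replicates 1 to 4. The groups overlap narrowly, with MC38 replicate 3 above control replicate 2. Its log2 fold change was -0.19 (95% confidence interval -0.52 to 0.14, edgeR adjusted p = 0.548). Dnmt3b, the second de novo enzyme (chromosome 2, 153649450 to 153687730), was at 51.4 and 37.1 CPM in control and 43.9, 41.9, 34.6 and 32.3 CPM in MC38. The control libraries differed more from each other than the group means of 44.3 and 38.2 CPM did. The log2 ratio of Dnmt3b to Dnmt3a within a library was -0.92 ± 0.16 in control and -0.94 ± 0.27 in MC38 (SD, n = 2 and 4; exact permutation p = 1 over 15 splits, where 0.0667 is the smallest possible). Tet2 (chromosome 3, 133463679 to 133545139) had 146 to 284 counts per library, the fewest of the regulators in every library. Its values were 12.3 and 14.3 CPM in control and 12.4, 15.4, 15.8 and 17.8 CPM in MC38, so that MC38 replicate 1 lay between the controls and the others above them. The interval of its log2 fold change of 0.21 ran from -0.41 to 0.84 (edgeR adjusted p = 0.754), an interval that holds changes of either sign.

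The relatives of these enzymes did not pass either. Dnmt1, which copies methylation after replication, was at 107 ± 5.58 CPM in control and 98.2 ± 15.5 CPM in MC38 (edgeR adjusted p = 0.752). Tet3 was at 25.2 ± 1.79 and 28.4 ± 0.59 CPM and Tet1 at 19.2 ± 5.30 and 14.5 ± 3.63 CPM (edgeR adjusted p = 0.702 and 0.555). The log2 ratio of Tet2 to Tet3 was -0.90 ± 0.25 in control and -0.88 ± 0.21 in MC38 (exact permutation p = 0.867). Dnmt3l, the catalytically inactive cofactor of the de novo enzymes, was at 0.252 ± 0.36 and 0.443 ± 0.44 CPM and was not tested. Of 16 tested writers, erasers and readers of DNA methylation, none was called in edgeR. An unadjusted p under 0.05 was found for 3, beside 17.5% of all genes. The lowest p-values belonged to Gadd45a, a stress-inducible protein linked to demethylation, at 77.3 ± 4.45 and 115 ± 8.75 CPM (edgeR adjusted p = 0.0704), and to Idh2, the mitochondrial enzyme that makes the cosubstrate of the TET enzymes, at 136 ± 1.06 and 105 ± 9.01 CPM (edgeR adjusted p = 0.169).

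For Polycomb, Ezh2 (chromosome 6, 47530139 to 47595341) was at 51.5 and 62.4 CPM in control and 46.0, 35.6, 42.5 and 50.2 CPM in MC38. Every MC38 library was below both controls, the nearest by little. The log2 fold change was -0.39 (95% confidence interval -0.81 to 0.03, edgeR adjusted p = 0.324). Its paralog Ezh1, which carries PRC2 activity in non-dividing cells, was at 30.9 ± 4.92 and 27.7 ± 7.01 CPM (edgeR adjusted p = 0.822). The log2 ratio of Ezh2 to Ezh1 was 0.58 and 1.17 in the controls and 0.33, 0.44, 1.11 and 0.78 in MC38, a difference of -0.21 with overlapping groups (exact permutation p = 0.533). Between the groups, the lower Ezh2 values came with a lower sum of dividing cell markers, given above, though 2 of the 10 had a log2 fold change above 0. Within MC38 the order differed. The dividing cell sum was 347, 418.5, 449.7 and 376.8 CPM in replicates 1 to 4, and Ezh2 was highest in replicates 4 and 1, where that sum was lowest. A link between them was not tested.

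Bmi1 (chromosome 2, 18677018 to 18686629) was the most variable regulator. Its control libraries were close to each other at 29.0 and 31.0 CPM, while MC38 replicates 1 to 4 had 14.0, 24.1, 41.4 and 33.2 CPM. Replicates 1 and 2 lay below both controls and replicates 3 and 4 above them, so the group means of 30.0 ± 1.39 and 28.2 ± 11.8 CPM hide a wide spread (log2 fold change -0.09, 95% confidence interval -0.91 to 0.73, edgeR adjusted p = 0.931). Behind these values stand 208 to 744 counts. The sign turned to 0.14 without MC38 replicate 1. Rnf2, the catalytic partner of Bmi1, looked at after the values were seen, had 39.7 and 38.2 CPM in control and 15.7, 24.8, 47.6 and 39.7 CPM in MC38, with the replicates in the same order, an order shared by 14.1% of all tested genes. Eed, a PRC2 subunit looked at in the same way, had another order.

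Of the 18 PRC1 subunits reported here none was called in edgeR and 3 had an unadjusted p under 0.05, with a median log2 fold change of -0.0079. Of 10 PRC2 subunits none was called in edgeR and 3 had an unadjusted p under 0.05. Among all genes 17.5% were under that p. Rbbp4, a histone-binding subunit also used by other complexes, was at 127 ± 16.7 and 90.2 ± 17.0 CPM, and Jarid2, a recruiting subunit, at 36.9 ± 6.02 and 50.9 ± 4.03 CPM (edgeR adjusted p = 0.199 and 0.223). Pcgf3, a relative of Bmi1 in variant PRC1, was at 12.4 ± 0.80 and 21 ± 3.96 CPM (edgeR adjusted p = 0.201). Ring1, the paralog of Rnf2, was at 24.4 ± 0.58 and 15.2 ± 2.92 CPM, with every MC38 library below both controls (edgeR adjusted p = 0.219).

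Asxl1 (chromosome 2, 153345829 to 153404007), the cofactor of the H2A deubiquitinase Bap1, had the largest positive fold change of the regulators. It was at 44.8 and 45.6 CPM in control and 52.5, 65.6, 87.0 and 56.0 CPM in MC38, above both controls in every library. MC38 replicate 3 stood well above the others. The log2 fold change was 0.53 (95% confidence interval 0.04 to 1.02, unadjusted, edgeR adjusted p = 0.254), and 0.36 without replicate 3 (edgeR adjusted p = 0.383). Its paralog Asxl2 was at 51.4 ± 4.07 and 62.2 ± 7.62 CPM (edgeR adjusted p = 0.442). Asxl3 was near absent, with 43 and 13 counts in control and 2, 3, 0 and 0 in MC38 (edgeR adjusted p = 0.141). Ogt, the sugar transferase that binds this complex, was at 134 ± 4.69 and 178 ± 25.9 CPM (edgeR adjusted p = 0.208). None of the 9 genes of that list was called in edgeR, and 2 had an unadjusted p under 0.05, beside 17.5% of all genes.

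Kmt2a (chromosome 9, 44803355 to 44881296) was at 162 and 122 CPM in control and 96.5, 108, 114 and 106 CPM in MC38. The MC38 libraries were close together and below both controls, which were far apart. The log2 fold change was -0.42 (95% confidence interval -0.75 to -0.09, unadjusted, edgeR adjusted p = 0.182), and it rested on the controls: it was -0.20 without control replicate 1 and -0.61 without control replicate 2 (edgeR adjusted p = 0.693 and 0.139). The paralogs Kmt2b (25.6 ± 5.39 and 28.6 ± 9.58 CPM), Kmt2c (79.5 ± 17.7 and 89.0 ± 14.8) and Kmt2d (218 ± 21.3 and 220.3 ± 9.0) had adjusted p-values of 0.841, 0.725 and 0.959 in edgeR. Their log2 fold changes of 0.16, 0.16 and 0.02 were of opposite sign to that of Kmt2a in this fit, but all turned negative without control replicate 1. None of 14 genes of the MLL family complexes had an unadjusted p under 0.05 in edgeR, and all 14 overlapped between groups, beside 17.5% and 29.0% of all genes under that p and without overlap. In this list Rbbp5 (30.4 ± 11.0 and 24.3 ± 6.54 CPM) and Ncoa6 (29.7 ± 0.19 and 34.4 ± 6.45 CPM) had the lowest p-values (edgeR adjusted p = 0.645 and 0.675).

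Mllt3 (chromosome 4, 87769925 to 88033364), which reads acylated histone tails in the super elongation complex and helps to maintain human HSCs, was at 97.5 and 90.4 CPM in control and 60.7, 80.3, 102.6 and 83.6 CPM in MC38. Replicate 3 was above both controls and the other 3 below them. The log2 fold change was -0.20 (95% confidence interval -0.64 to 0.24, edgeR adjusted p = 0.656). Its paralog Mllt1 was at 23.5 ± 9.01 and 14.7 ± 1.64 CPM (edgeR adjusted p = 0.261). Of 15 genes of the super elongation and DOT1L complexes none was called in edgeR, and the median log2 fold change was 0.20. An unadjusted p under 0.05 was found for 3, beside 17.5% of all genes. Ccnt2, a cyclin of the elongation kinase, had 25.8 ± 4.51 and 45.2 ± 4.95 CPM (edgeR adjusted p = 0.0788), and Eaf1, an ELL-associated factor, had 15.8 ± 3.63 and 25.6 ± 2.78 CPM (edgeR adjusted p = 0.192).

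The DNA ahead of these genes is shown because the CG step in it is the substrate of Dnmt3a and Tet2 and is bound, unmethylated, by Kmt2a. The runs of Kmt2a and Asxl1 end where the annotated gene begins and that of Mllt3 a little before it. Each is written 5′ to 3′ on the gene's strand with CG steps in capitals (RefSeq, GRCm38.p6). The positions are chr9:44881297-44881539 (minus strand) for Kmt2a, chr4:88033408-88033657 (minus) for Mllt3 and chr2:153345580-153345828 (plus) for Asxl1.
Kmt2a: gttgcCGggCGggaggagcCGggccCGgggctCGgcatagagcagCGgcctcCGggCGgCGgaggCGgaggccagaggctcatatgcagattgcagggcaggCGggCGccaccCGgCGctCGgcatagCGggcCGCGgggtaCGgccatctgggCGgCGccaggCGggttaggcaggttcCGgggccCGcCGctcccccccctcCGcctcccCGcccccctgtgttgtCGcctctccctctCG
Mllt3: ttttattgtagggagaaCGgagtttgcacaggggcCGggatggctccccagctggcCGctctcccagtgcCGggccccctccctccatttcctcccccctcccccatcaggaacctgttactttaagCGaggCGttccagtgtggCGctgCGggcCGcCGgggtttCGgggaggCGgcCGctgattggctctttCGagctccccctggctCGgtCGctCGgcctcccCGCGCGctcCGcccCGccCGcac
Asxl1: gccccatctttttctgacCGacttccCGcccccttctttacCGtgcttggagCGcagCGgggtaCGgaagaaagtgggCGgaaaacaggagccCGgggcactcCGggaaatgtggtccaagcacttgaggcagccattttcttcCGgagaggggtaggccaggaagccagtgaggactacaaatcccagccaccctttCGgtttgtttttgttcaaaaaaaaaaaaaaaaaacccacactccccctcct
These windows hold 29, 23 and 11 CG steps in that order. Over 32851 RefSeq windows of 250 bases before a start the median was 6, and 93.2%, 86.7% and 64.4% of them had fewer than Kmt2a, Mllt3 and Asxl1. Windows matched 9 of the 10 regulators, with 14 starts in all, and ran from 4 steps at the internal start of Mllt3 to 51 at Tet2. The E2F octamers TTTCGCGC, TTTGGCGC, TTTCCCGC and TTTGCCGC, searched on both strands, were in none of the 14 windows and in 1.86% of all windows. The counts hold no methylation measurement, so these windows are a description only.

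Kdm6b (chromosome 11, 69398508 to 69413675) had nearly equal group means, 159 ± 17.7 CPM in control and 159 ± 20.5 CPM in MC38. The libraries had 146 and 171 CPM in control and 185, 163, 135 and 154 CPM in MC38, and both extremes were MC38 libraries. The 95% confidence interval of its log2 fold change of 0.0026 ran from -0.33 to 0.33 (edgeR adjusted p = 0.997). The paralog Kdm6a, which acts on the same mark, was at 25.8 ± 2.09 and 29.6 ± 10.4 CPM (edgeR adjusted p = 0.808). The log2 ratio of Kdm6b to Kdm6a was 2.57 and 2.63 in the controls and ran from 1.78 to 3.27 in MC38, with 2 libraries above and 2 below the controls (exact permutation p = 0.933). With Benjamini-Hochberg adjustment over the 4 ratios tested, all 4 exact permutation p-values were 1. None of 20 other genes listed here as histone demethylases was called in edgeR. Their median log2 fold change was 0.22, and 2 had an unadjusted p under 0.05, beside 17.5% of all genes. Kdm8 was at 5.67 ± 0.54 and 11.9 ± 3.57 CPM and Riox2 at 40.9 ± 0.018 and 58.0 ± 9.83 CPM (edgeR adjusted p = 0.207 and 0.230).

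Msi2 (chromosome 11, 88339382 to 88718513), a translational regulator that sustains HSC self-renewal, had the lowest p-value of the regulators. It was at 172 and 190.3 CPM in control and 123, 132, 144 and 148 CPM in MC38, below both controls in every library. The log2 fold change was -0.41 (SE 0.12, 95% confidence interval -0.69 to -0.13, unadjusted, edgeR adjusted p = 0.137). Without single libraries it stayed between -0.48 and -0.33, with adjusted p-values from 0.132 to 0.354. With the replicate number as a block its edgeR adjusted p was 0.0468, and with the third control column 0.0256. The labels do not pair same-numbered libraries, and that column lay between the other controls for 91.5% of tested genes. Neither value is therefore taken as a call. Its paralog Msi1 had 0 counts in both controls and 2, 2, 5 and 2 in MC38. Among 14 tested RNA-binding regulators none was called in edgeR and 1 had an unadjusted p under 0.05, beside 17.5% of all genes. That gene was Rbm15, a factor that guides RNA methylation, at 7.35 ± 3.62 and 17.5 ± 3.35 CPM (edgeR adjusted p = 0.132). Zfp36l1, which binds AU-rich mRNAs and promotes their decay, followed at 379.9 ± 46.4 and 453 ± 35.5 CPM (edgeR adjusted p = 0.333).

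**Figure D2:**
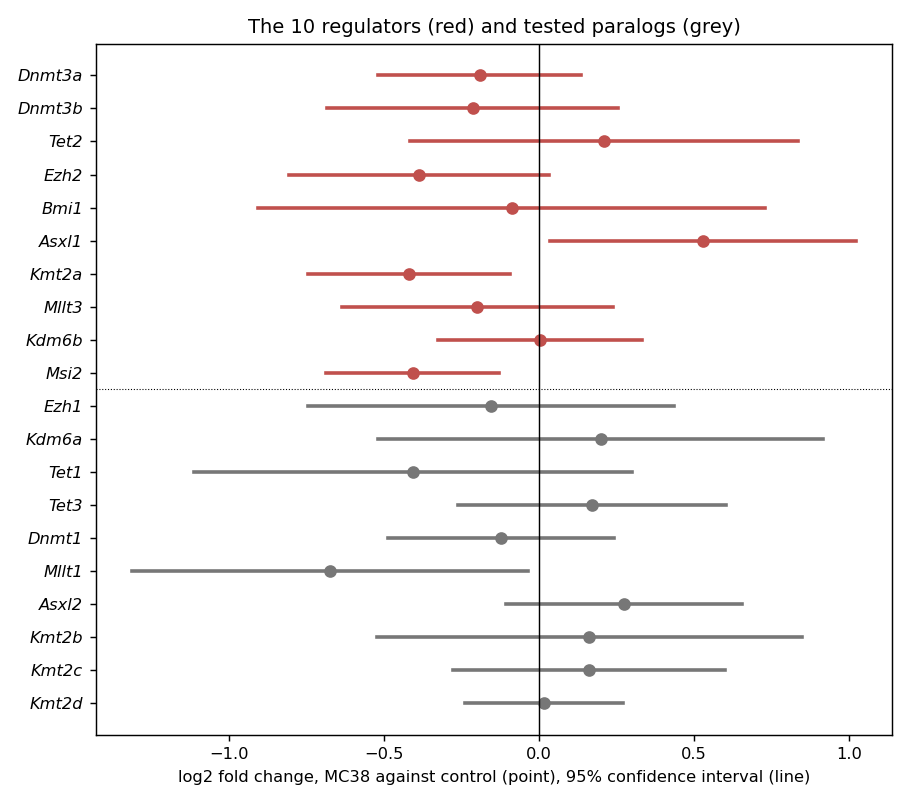
The horizontal axis is the log2 fold change of MC38 against control from edgeR; points are estimates and lines unadjusted 95% confidence intervals, with the 10 regulators in red and their tested paralogs in grey, Asxl3 left out for its few counts. The intervals of Msi2, Kmt2a and Asxl1 and of the paralog Mllt1 leave out 0, and that of Bmi1 runs from -0.91 to 0.73.

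Within MC38 the regulators did not all vary alike. Replicate 1 was the lowest of the 4 libraries for 7 of the 10 regulators, beside 33.7% of all tested genes. Replicate 3 was the highest for 5, beside 30.1% of all tested genes. Dnmt3a, Asxl1, Bmi1, Kmt2a and Mllt3 were both lowest in replicate 1 and highest in replicate 3. The libraries in order of mitochondrial share are replicates 1, 2, 4 and 3. Bmi1 and Mllt3 followed that order, as did 14.1% of all tested genes, and Kdm6b had the reverse order, as did 15.3%. The SD was 41.9% of the mean for Bmi1, 23.8% for Asxl1 and 20.9% for Mllt3, and 6.73% to 14.7% for the other 7.

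**Figure D3:**
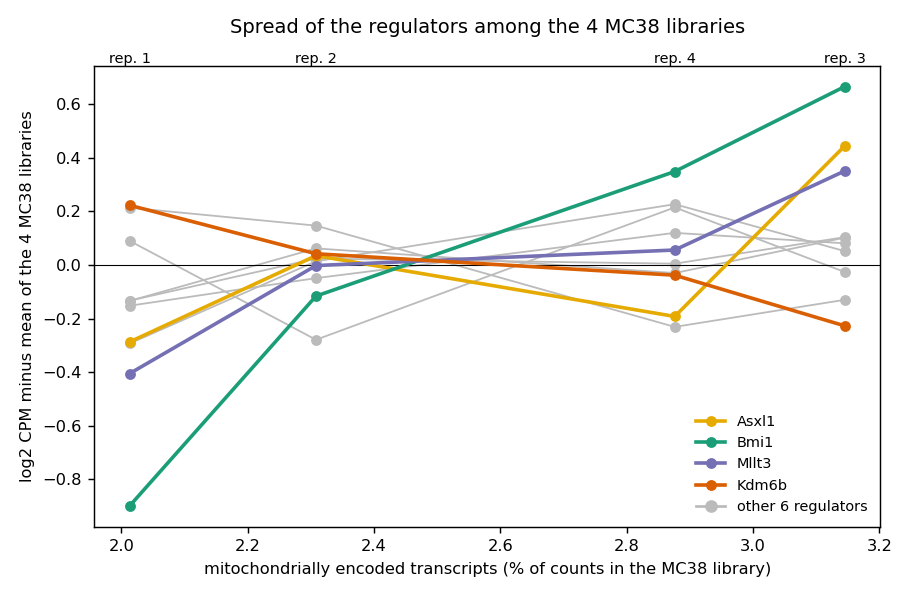
The horizontal axis is the percent of counts from mitochondrially encoded transcripts in each MC38 library (2.01% to 3.15%) and the vertical axis is a regulator's log2 CPM minus its mean over the 4 libraries. Each line joins the 4 libraries of a regulator. Bmi1, Mllt3, Asxl1, Dnmt3a and Kmt2a are lowest in replicate 1 and highest in replicate 3, while Kdm6b is the reverse.

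Other genes mutated in clonal haematopoiesis gave 1 call. Smc1a, a cohesin subunit, was lower in MC38, at 105 ± 4.38 CPM against 165 ± 15.0 CPM in control, a log2 fold change of -0.65 (SE 0.12; adjusted p = 0.0304 in edgeR), with every MC38 library below both controls. The call was kept in 10 of 14 alternatives and lost in edgeR on removing either control (adjusted p = 0.239 without the first, 0.0910 without the second), MC38 replicate 2 (0.112) or 4 (0.0977). The splicing factor gene U2af1 had 149 ± 18.9 CPM in MC38 against 236 ± 39.8 CPM in control (adjusted p = 0.0614 in edgeR). It passed in 6 of 14 alternatives, over all of which the adjusted p ran from 0.0032 in DESeq2 to 0.381 in edgeR without control replicate 1. Of the 21 genes 1 fell and 20 did not pass, and 5 had an unadjusted p under 0.05 (4 lower), beside 17.5% of all genes, with a median log2 fold change of -0.02. Over the 148 tested genes of the wider lists reported here 1 fell and none was called higher in edgeR, beside 1.04% higher and 0.569% lower among all genes, and 23 had an unadjusted p under 0.05.

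Among textbook targets of the regulators none of 11 tested genes was called in edgeR and 1 had an unadjusted p under 0.05. Among all genes 17.5% were under that p. Cdkn2a, the locus silenced by Bmi1 and Ezh2, had 1 and 0 counts in control and 22, 13, 0 and 4 in MC38 (edgeR adjusted p = 0.427). Cdkn1a, the p21 cell cycle inhibitor, was at 235 ± 0.24 and 180.0 ± 5.13 CPM (edgeR adjusted p = 0.102). Numb, a target of Musashi proteins, had 16.6 ± 1.86 and 23.0 ± 3.04 CPM (edgeR adjusted p = 0.356). Hoxa9, a target of Kmt2a, was at 94.2 ± 4.24 and 109 ± 18.6 CPM (edgeR adjusted p = 0.585). Cdkn2a and Hoxa9 were chosen after their values were seen, as textbook targets of Bmi1 and Kmt2a.

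**Figure D4:**
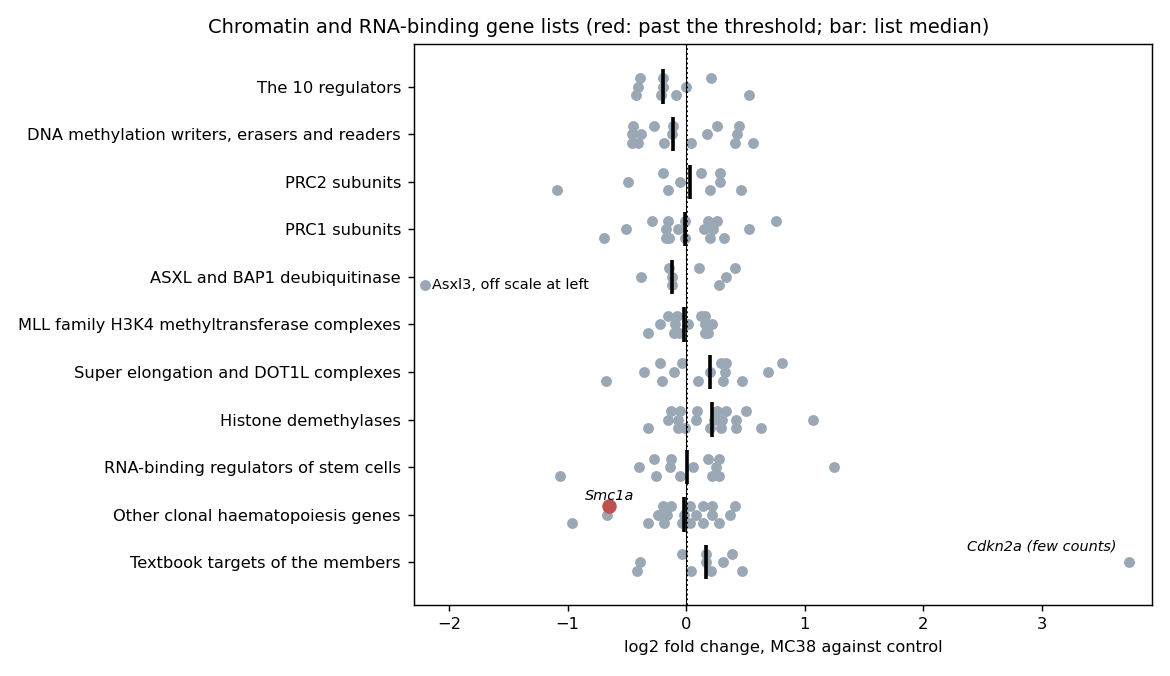
Each row is a gene list and each point a tested gene at its log2 fold change of MC38 against control (horizontal axis); black bars are list medians, the dotted line the median of all genes, and the red point the gene past the threshold. Smc1a at -0.65 is the red point, and Asxl3 lies off the left edge.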

How the data were processed

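RNA was sequenced from 3 control and 4 MC38 libraries of sorted marrow HSCs. The authors deposited a table of raw read counts per Ensembl gene. The submitters' processing notes name the build mm10 and the tools HTSeq 0.10.0, STAR 2.6.1 and Trim Galore 0.5.0. Per the labels' protocols, cDNA was amplified with 12 PCR cycles, and no molecular identifiers are named, so PCR copies count as reads. For the counting, an annotation release and a strand setting were not given in the sources used here. Exons of 6 regulators (Asxl1, Dnmt3a, Ezh2, Kdm6b, Kmt2a and Tet2) overlap annotated antisense transcripts by 43 to 378 bases, whose reads cannot be told apart without strand. Symbols and positions came from GENCODE M21 (27797 of 28786 IDs named).

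Groups and replicate numbers came from the sample titles. The members and gene lists were chosen with earlier results of these data known. The same holds for leaving out the third control column. MC38 was compared with control in edgeR 4.0.16 (R 4.3.3) with TMM, filterByExpr, the robust quasi-likelihood test and two-sided Benjamini-Hochberg adjustment over 14226 genes, at a threshold of 0.05. The code was tested on simulated data with larger changes than those of the regulators and a lower dispersion than the common one here. That test does not show whether changes of their size would be called. The genes named are the 10 members, their paralogs, and from each wider list those past the threshold and the 2 of smallest p. Exceptions are marked. A few listed genes are not reported here, and counts, sums and medians of their lists leave them out. DESeq2 1.42.0, limma 3.58.1 (voom), other filters, size factors, all 7 columns, a replicate block, leaving out each library and, chosen after seeing the data, leaving out 10 neutrophil genes were the alternatives. Ratios were log2 of CPM with a pseudocount of 0.5 CPM, and their exact permutation tests were two-sided.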

Additional observations from a re-analysis of the deposited data

Results flagged for a closer look

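Of the 49 values examined for a library apart from the rest of MC38, 1 stood out. Msi1, the neural paralog of Msi2, was at 0.278 CPM in MC38 replicate 3 against 0.134 to 0.148 CPM in the other MC38 libraries, a gap of 0.906 of the whole range. The level rests on 5 counts against 2 in each of the others. For continuous values chance alone gives about 1 such group in 20. That rate does not hold for this gene, where the other libraries are tied at 2 counts.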

How the results depend on the processing

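Of the 140 alternative values of the 10 regulators, 131 kept direction and side of the threshold, 3 passed it and 6 changed sign. Those past it were Msi2 and Kmt2a with all 7 columns (log2 fold change -0.41 for each, edgeR adjusted p = 0.0256 and 0.0494) and Msi2 with the replicate block (-0.51, adjusted p = 0.0468). The 7-column fit takes the third control column as an independent library. Kdm6b was at -0.0054 with limma-voom. Without single libraries Kdm6b ran from -0.11 to 0.12, Dnmt3b from -0.43 to 0.040, Bmi1 from -0.34 to 0.14 and Kmt2a from -0.61 to -0.20. The replicate numbers are only numbers in the labels. Deviations of same-numbered libraries correlated at 0.07 and -0.04 over 2 pairs. With 2 controls the deviations of 1 mirror those of the other, so the 2 values are not independent. Numbers 3 and 4 had no control partner. In the block fit, MC38 replicates 3 and 4 therefore stood alone in their blocks, so its fold changes rested on replicates 1 and 2. The block moved the genes called higher and lower from 148 and 81 to 269 and 190, and put Bmi1 at -0.70 and Mllt3 at -0.43 (-0.09 and -0.20 without it), Asxl1 at 0.38, Tet2 at 0.064, Dnmt3b at -0.028, Kdm6b at 0.13, the median of the 10 at -0.33, Ncoa6 at -0.037, Ezh1 at 0.0072, Kdm6a at -0.32, Kmt2c at -0.02, Kmt2d at -0.0051 and Hoxa9 at -0.017. Genes higher and lower were 626 and 395 with DESeq2, 302 and 202 with no filter, 243 and 147 with at least 50 counts in every library of a group, 791 and 663 with all 7 columns, and 44 to 259 and 16 to 183 without single libraries. Of the wider lists, with 0 called higher and 1 lower in the reported fit, DESeq2 called 3 higher and 4 lower, no filter 2 lower, the 50-count filter 1 and 2, all 7 columns 7 and 5, the block 3 lower, and the fits without single libraries 0 higher and 0 to 2 lower. Those fits tested 14226 genes with DESeq2 and with the block, 21477 with no filter, 11043 with the 50-count filter and 13770 with all 7 columns. Each list count is to be read beside the genes called higher and lower in the same fit, given above. Without single libraries Rbbp5 ran from -0.65 to 0.10, Ezh1 from -0.32 to 0.017, Kmt2b from -0.094 to 0.40, Kmt2c from -0.048 to 0.41 and Kmt2d from -0.080 to 0.12. The MC38 minus control differences of the log2 ratios ran from -0.51 to 0.088 for Ezh2 to Ezh1, -0.13 to 0.10 for Dnmt3b to Dnmt3a, -0.40 to 0.10 for Kdm6b to Kdm6a and -0.15 to 0.20 for Tet2 to Tet3. The cause of the shifts in the other settings was not tested. Where 1 control was left out, the lone control is assumed to vary like MC38. Without the neutrophil genes no regulator was called. Tet2 had the fewest counts of the regulators.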
